A study of Mus musculus with 5 samples.

Results

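Liver of leptin-deficient obese mice was compared directly with liver of diet-induced obese mice, a contrast of 2 arrays among the 5 of the series. The arrays were chosen by their labels alone: ob/ob mice on chow on one side and wild-type (WT) mice on a high-fat diet (HFD) on the other. All groups were given as C57BL/6 and were kept on their diets for 16 weeks. The other 3 arrays were WT on chow, WT on HFD whose food held nordihydroguaiaretic acid (NDGA, a plant lignan that inhibits lipoxygenases) at 2.5 g per kg, and ob/ob on chow with NDGA at the same dose. Each group used RNA of 3 animals and has 1 array; the labels do not say whether the RNA was pooled, nor the sex or age of the animals. There are thus no replicates, and every value below is a reading on 1 array or a difference between 2. The ob/ob side differs from the HFD side in genotype and in food at once, and these cannot be told apart in this contrast.

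Leptin is a hormone of fat cells that restrains food intake through the hypothalamus. Mice with the ob mutation make no functional leptin, overeat on ordinary chow and become obese, with high insulin, high glucocorticoids and a fatty liver; WT mice on a fat-rich diet also become obese and store fat in liver, but they make leptin and take much of the fat from the food. Liver builds fatty acids under the control of insulin and SREBP-1c, builds cholesterol under SREBP-2, burns fatty acids in mitochondria and peroxisomes, and disposes of cholesterol as bile acids. Many liver genes also differ between male and female mice because the pituitary releases growth hormone in sex-specific patterns.

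Compared with diet-induced obese liver, the ob/ob array read lower for the male-biased liver genes Susd4 (6.43-fold) and Cyp7b1 (5.46-fold) and for Igfbp2 (2.58-fold). It read higher for the desaturase Scd2 (2.72-fold), the lipid droplet protein Cidea (2.47-fold), the carbonyl reductase Cbr3 (4.37-fold) and the P450 Cyp2b10 (3.33-fold). These genes differed the same way, at least 2-fold, between the ob/ob and HFD arrays of mice that had NDGA. Genes of cholesterol synthesis, fatty acid breakdown in mitochondria and the acute phase also lay mostly below 0, with log2 medians of -0.61, -0.37 and -0.42. Their medians between the NDGA arrays were -0.16, 0.53 and 0.50. Of all genes kept for comparison, 44.4% lay below 0. Low medians were not particular to these lists: urea cycle and amino acid enzymes were at -0.40 and hepatocyte markers at -0.29. Other lists lay above 0, such as olfactory receptor genes at 0.26.

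Values are probe intensities brought to a common level by quantile normalization of the 5 arrays, given below as normalized intensity. Differences are log2(normalized intensity + 50) on ob/ob chow minus the same on WT HFD, so a positive value means brighter on the ob/ob array, and differences of dim probes are understated. A gene was kept when its mean over both arrays lay at or above the median of all genes, which left 8319 of 16637 genes, and it was called when it differed by at least 2-fold. Of the kept genes, 28 (0.337%) were higher and 163 (1.96%) were lower on the ob/ob array, 2.3% in all; 44.4% lay below 0 at any size. The median difference of all kept genes was 0.06 and their SD was 0.44. The called gene nearest the threshold lay at 1.02 on the higher side, and the nearest gene outside it lay at 0.9999; on the lower side these sizes were 1.0004 and 0.9994. Of the called genes, 19 of the 28 higher and 98 of the 163 lower ones lay at or above the 75th percentile of brightness over all genes. The plot of difference against brightness shows their spread.

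**Figure D1:**
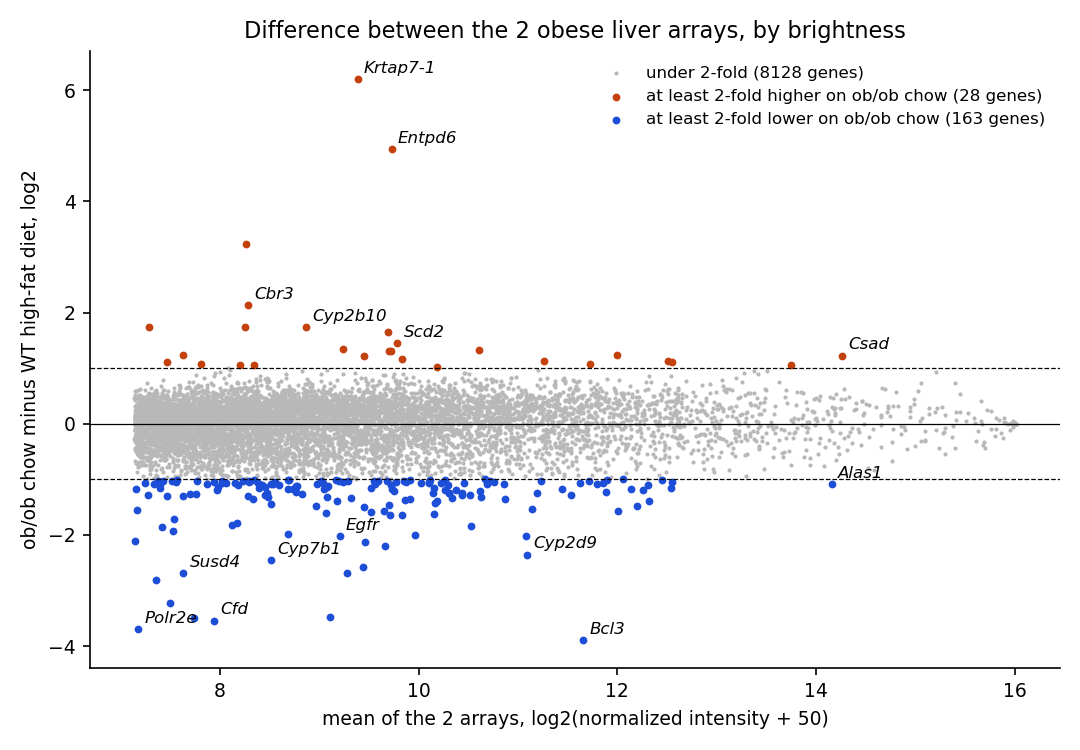
Log2 difference between ob/ob chow and WT HFD (vertical axis) against the mean log2(normalized intensity + 50) of both arrays (horizontal axis), 1 point per kept gene. Dashed lines mark 2-fold; 28 genes lie above and 163 below, and Krtap7-1 at 6.21 and Bcl3 at -3.89 are the extremes.

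The split between the directions depended on scaling: without normalization 15 genes were higher and 336 lower, which moved the share of higher genes among those called from 14.7% to 4.27%, and the median of all kept genes from 0.06 to -0.12. The spread between mice is unknown. The only error measurable within the arrays is the spread between probes of a gene: for 850 genes with a pair of bright probes, the probes' differences correlated at r = 0.33 across genes, which share the RNA and the arrays, and the SD per probe was 0.33. Of the 31 such genes with a probe past 2-fold, 26 had both probes on the same side of 0 and 3 had both past 2-fold.

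The NDGA arrays hold the same genotype and diet contrast on arrays that the comparison does not use, ob/ob chow with NDGA minus WT HFD with NDGA, here called the NDGA pair. In that pair 6.67% of kept genes were at least 2-fold higher and 2.88% at least 2-fold lower. Of the 28 genes higher without NDGA, 20 were above 0 in the NDGA pair, against 47.8% of all kept genes, and 12 were again at least 2-fold higher. Of the 163 lower genes, 54 (33.1%) were below 0 in the NDGA pair, against 52.1% of all kept genes, and 31 were again at least 2-fold lower while 52 were at least 2-fold higher. Across the 8319 genes the differences of both pairs correlated at r = -0.40, a description of 4 arrays normalized together. Most of the lower calls therefore did not recur with NDGA on both sides, and each called gene below is given with its value in the NDGA pair.

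**Figure D2:**
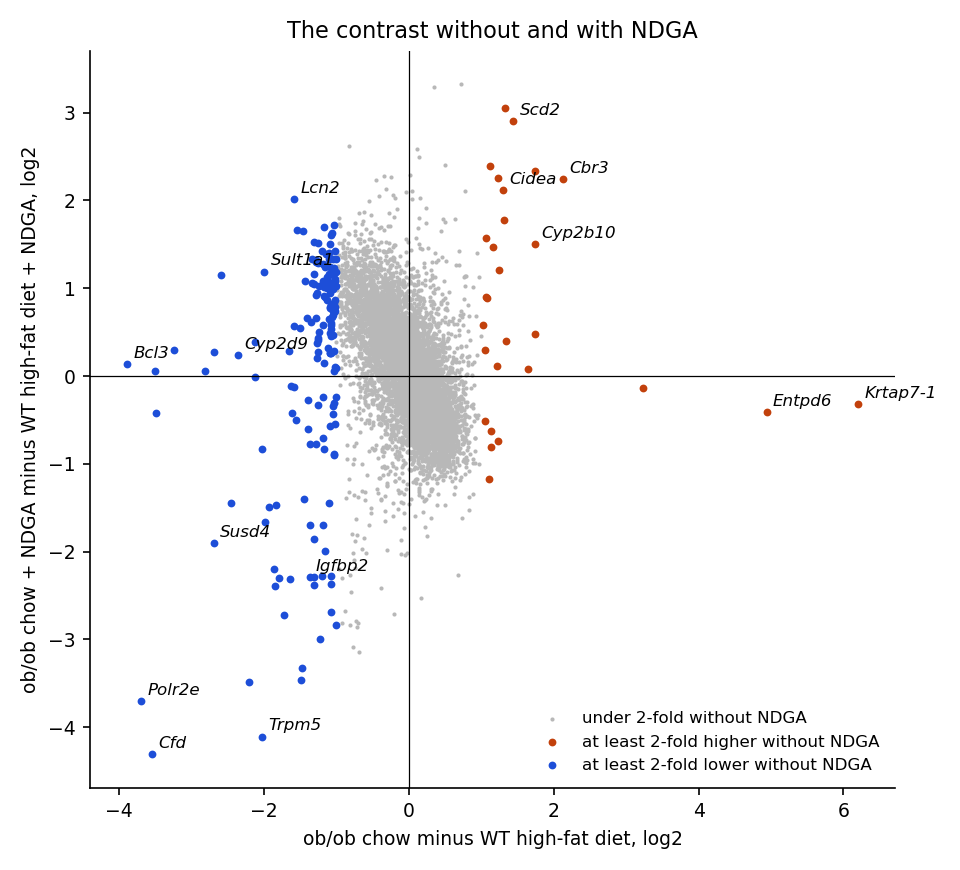
Log2 difference of ob/ob chow minus WT HFD (horizontal axis) against the same contrast with NDGA on both sides (vertical axis), 1 point per kept gene. Cfd, Polr2e, Trpm5 and Susd4 lie low on both axes and Scd2, Cbr3 and Cyp2b10 high on both, while Lcn2 and Sult1a1 lie on opposite sides; the whole cloud tilts downward, with r = -0.40.

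Several technical readings moved with this. The deposited median intensity was 38.1 on ob/ob chow and 39.6 on WT HFD, but 71.0 on ob/ob chow with NDGA and 47.0 on WT HFD with NDGA. The 156 kept olfactory receptor genes, which liver is not known to use, had a median of 0.26 without and -0.60 with NDGA; this list was added after the data were seen. The 14 kept ribosomal and housekeeping genes had a median of -0.22 without and 0.74 with NDGA, and the 12 kept hepatocyte markers -0.29 and 0.33. Skeletal muscle markers also differed on the NDGA arrays: Ckm, muscle creatine kinase, read 13.6 on both arrays compared here, but 1589 on WT HFD with NDGA and 223 on ob/ob chow with NDGA. The part of these readings in the results was not tested.

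Genes with male-biased expression in mouse liver lay mostly below 0, in the NDGA pair too. The labels do not give the sex of the animals, so genotype, food and any difference in sex between groups cannot be told apart here. Of 15 kept members, 14 lay below 0, against 44.4% of all kept genes, and the median was -0.48. Among the 15, 6 were called lower and 0 higher, against 1.96% and 0.337% of all kept genes. In the NDGA pair the median was -0.74 and 5 were at least 2-fold lower, against 2.88% of all kept genes. On 10 of the 15, both ob/ob arrays read below all 3 WT arrays, against 5.71% of all kept genes. The members were listed with earlier results of these data known, so the counts describe the list. Shares of all kept genes, given here and above, apply to the counts of every list below, some of which rest on 1 or 2 genes.

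Susd4, a complement regulator, read 717 on WT chow, 454 on WT HFD and 421 on WT HFD with NDGA, but 28.3 on ob/ob chow and 75.5 for ob/ob with NDGA. Both ob/ob arrays were below every WT array. The difference was -2.69, or 6.43-fold, and -1.91 in the NDGA pair, and a second probe gave -0.87 and -1.02. Egfr, the epidermal growth factor receptor, read 1080 on WT chow, 1142 on WT HFD, 851 on WT HFD with NDGA, 243 on ob/ob chow and 457 for ob/ob with NDGA. Its difference was -2.03, and -0.83 with NDGA, with WT chow and WT HFD at nearly the same level. Slco1a1, an organic anion carrier of the hepatocyte membrane, read 2397 on WT chow and 772 on WT HFD against 157 on ob/ob chow; with NDGA it read 452 on WT HFD and 108 on ob/ob. It was lower on every obese array than on the lean one and lowest on the ob/ob arrays, with differences of -1.99 and -1.66. Its second probe was near background, at 19 and 18 on the arrays compared.

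Other male-biased members did not hold with NDGA. Cyp2d9, a steroid hydroxylase, read 4896 on WT HFD and 916 on ob/ob chow, 5.12-fold lower, with 2366 on WT chow. Its NDGA readings were 1921 on WT HFD and 2270 on ob/ob, a difference of 0.24. Nudt7, a peroxisomal hydrolase of coenzyme A, differed by -1.50 and, in the NDGA pair, by 0.55. Hsd3b5, a steroid-reducing enzyme of male liver, separated lean from obese rather than the obese arrays from each other: it read 11690 on WT chow, 367 on WT HFD, 453 on WT HFD with NDGA, 248 on ob/ob chow and 231 for ob/ob with NDGA, and differed by -0.48 between the arrays compared.

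Among 13 kept female-biased genes the median was 0.19, and 0.50 in the NDGA pair, with 9 above 0 and 1 called. That gene was Cyp2b10, a P450 enzyme induced through the nuclear receptor CAR, which read 206 on WT HFD and 268 on WT HFD with NDGA, 431 on WT chow, and 804 and 853 on ob/ob chow without and with NDGA. Both ob/ob arrays were above every WT array, the difference was 1.74 (3.33-fold), and 1.50 in the NDGA pair, and the other probes gave 0.85 and 1.12. Cyp2b9, its female-biased relative, was high in both kinds of obesity: it read 1743 on WT chow, 17467 on WT HFD and 19997 on ob/ob chow, a difference of 0.19 between the obese arrays.

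**Figure D3:**
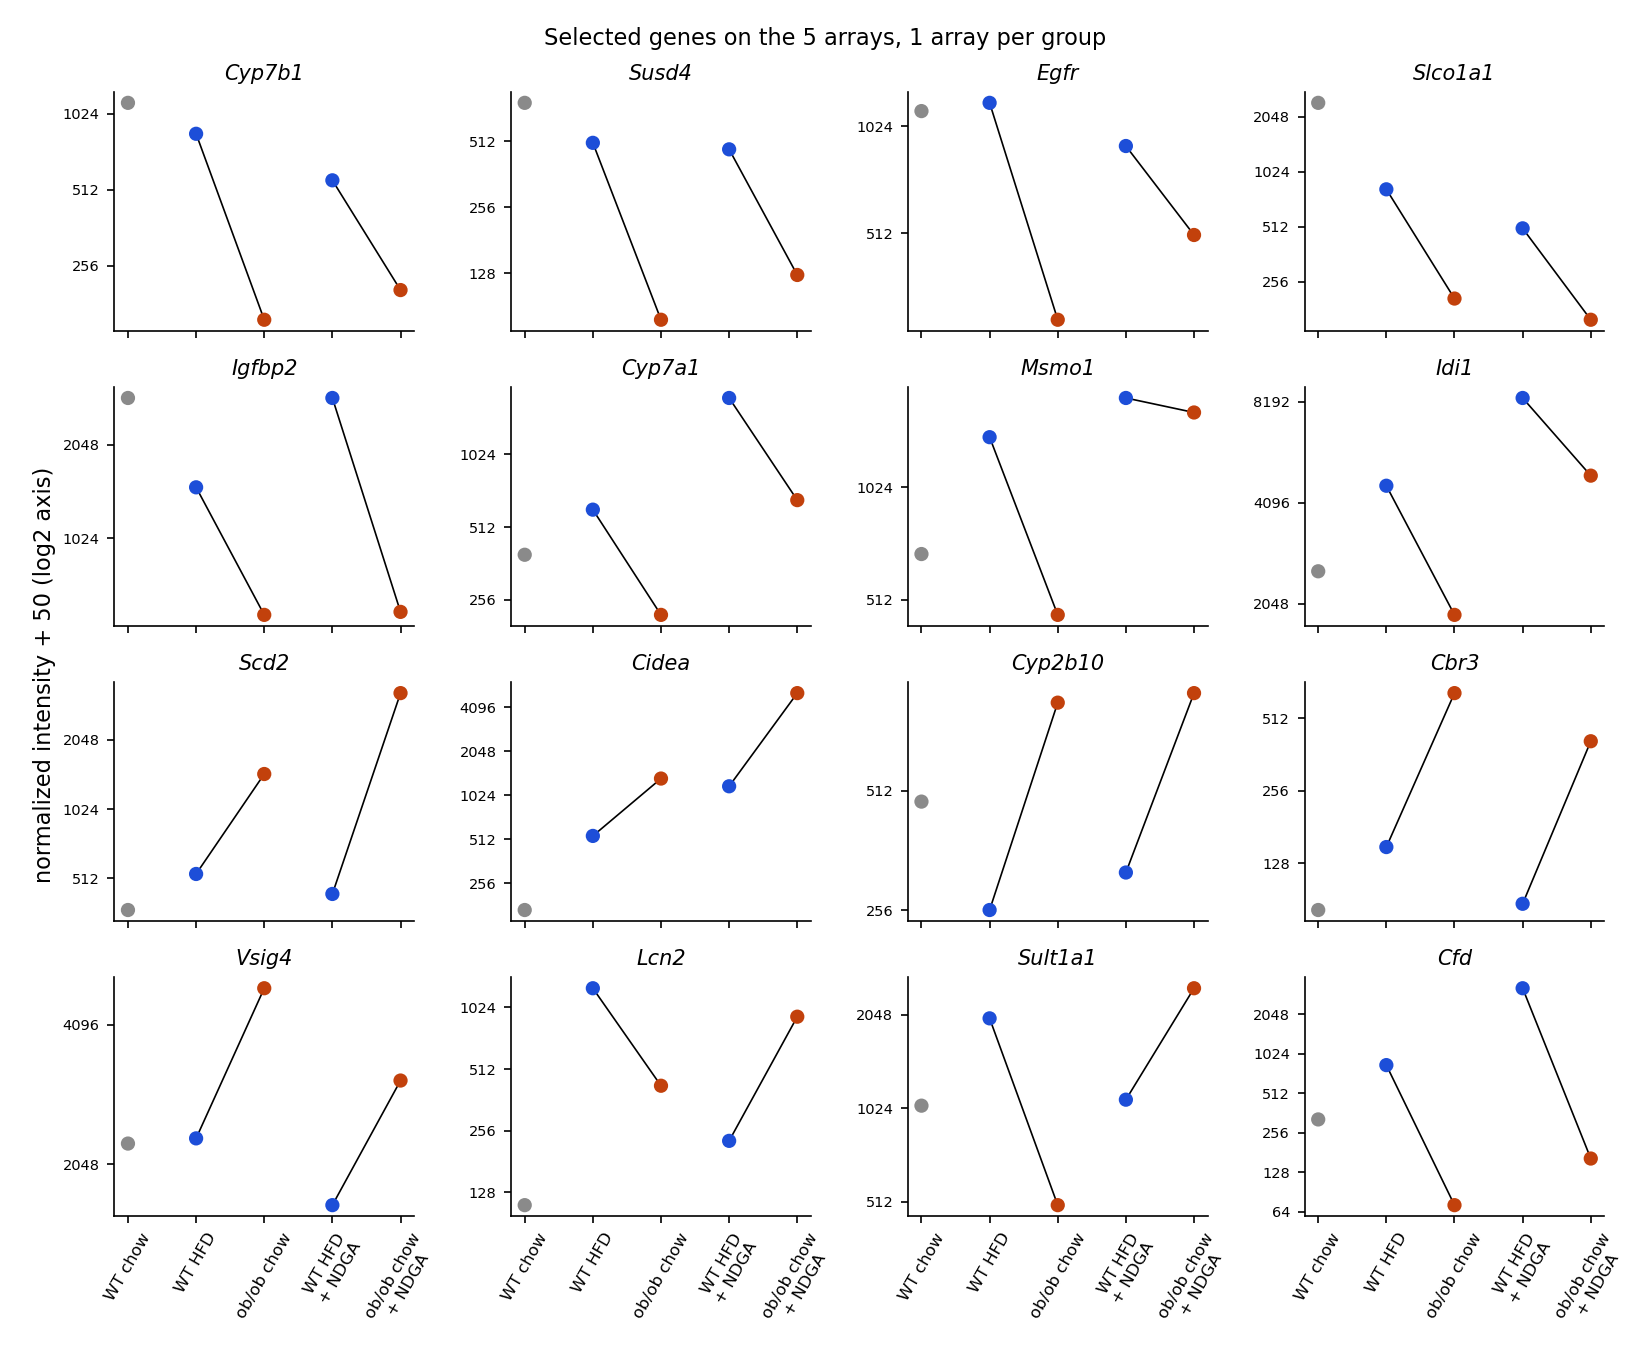
Normalized intensity plus 50 (vertical axis, log2 scale, a range of its own in each panel) of 16 genes on the 5 arrays (horizontal axis), 1 point per array with no error; lines join the WT HFD and ob/ob arrays without and with NDGA. Cyp7b1, Susd4, Egfr, Slco1a1, Igfbp2, Cyp7a1 and Cfd go down from WT HFD to ob/ob in both pairs, Scd2, Cidea, Cyp2b10, Cbr3 and Vsig4 go up in both, and Lcn2 and Sult1a1 go opposite ways.

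In the growth hormone and IGF axis 2 of 11 kept members were called lower and 0 higher, 8 were below 0 and the median was -0.40. In the NDGA pair the median was -0.04, with 3 members at least 2-fold lower and 1 at least 2-fold higher. On 4 members both ob/ob arrays read below all WT arrays. Igfbp2, a binding protein that carries IGFs in plasma, read 2843 on WT chow, 1441 on WT HFD, 2843 on WT HFD with NDGA, 529 on ob/ob chow and 542 for ob/ob with NDGA. The ob/ob readings were nearly equal and far below all WT readings, with differences of -1.36 and -2.29. Igfals, which holds IGF1 in its plasma complex, read 7447 and 4570, a difference of -0.70, and -1.37 in the NDGA pair. Igf1 itself, the hormone made by liver under growth hormone, read 4292 and 2780 and differed by -0.62, and by -0.25 in the NDGA pair; Ghr, the growth hormone receptor, differed by -0.69 but by 0.23 in the NDGA pair. Onecut1, a hepatocyte transcription factor, was called at -1.82, and -1.47 in the NDGA pair, but its other probe gave 0.20 and the mean of its probes, -0.81, was not called.

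In fatty acid synthesis 1 of 17 kept members was called higher and 0 lower, against 0.337% and 1.96% of all kept genes. Of these members 10 were above 0 and the median was 0.14. In the NDGA pair 8 were at least 2-fold higher, against 6.67% of all kept genes, and the median was 0.81. Scd2, a stearoyl-CoA desaturase that liver uses little in the adult, read 323 on WT chow, 485 on WT HFD, 388 on WT HFD with NDGA, 1405 on ob/ob chow and 3220 for ob/ob with NDGA. Both ob/ob arrays were above all WT arrays, with differences of 1.44 (2.72-fold) and 2.90. Acaca, which makes malonyl-CoA, the building block of fatty acids, read 1778 and 2923, a difference of 0.70, and Fasn, fatty acid synthase, read 6386 and 8865, a difference of 0.47. Both stayed under 2-fold here and were past it in the NDGA pair, at 1.42 and 1.79. Scd1, the main desaturase of liver, sat at the scanner's limit on both arrays, so no difference can be read from it.

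Lipid droplet and triglyceride genes were near 0 as a group, with 1 of 26 kept members called higher, 1 lower and a median of -0.10, against 0.37 in the NDGA pair. Cidea, a lipid droplet protein that enlarges droplets and is scarce in lean liver, read 118 on WT chow, 488 on WT HFD, 1127 on WT HFD with NDGA, 1279 on ob/ob chow and 5057 for ob/ob with NDGA. It was lowest on the lean array and differed by 1.30 (2.47-fold), and by 2.12 in the NDGA pair. Its relative Cidec read 1654 on WT chow but 6606 and 7643 on the obese arrays compared, a difference of 0.21, and 0.86 in the NDGA pair. Pparg, the nuclear receptor that drives fat storage genes, read 720 and 1220, a difference of 0.72, and 0.35 in the NDGA pair. Plin2, which coats droplets, differed by 0.04. Ces1f, a carboxylesterase, was the lower member at -1.17, but it was at 1.01 in the NDGA pair.

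Cholesterol synthesis had the lowest median of the 41 lists with this processing, -0.61, with 14 of 16 kept members below 0, 4 called lower and 0 higher. In the NDGA pair the median was -0.16 and 0 members were called either way. Msmo1, the sterol-C4-methyl oxidase, read 629 on WT chow, 1344 on WT HFD and 417 on ob/ob chow, a difference of -1.58 (2.99-fold); with NDGA it read 1725 and 1573, a difference of -0.13. Idi1, the isomerase that makes dimethylallyl diphosphate, read 2511 on WT chow, 4555 on WT HFD and 1849 on ob/ob chow, differing by -1.28, and by -0.77 in the NDGA pair. For both genes the lean array lay between the obese ones, nearer to ob/ob. Nsdhl, a sterol dehydrogenase, differed by -1.07, with its other probes at -1.19 and -0.14, but by 0.26 in the NDGA pair. Stard4, a carrier of cholesterol within cells, was the member whose ob/ob arrays both read below all WT arrays among those called, at -1.03 and -0.30, with its other probe at -0.50. With the mean of all probes, Nsdhl at -0.80 and Stard4 at -0.77 were no longer called.

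Cholesterol genes are known to be driven by SREBP-2 together with NF-Y, a factor that binds CCAAT boxes. The promoters of all genes with an entry were searched for 7 patterns, and CCAAT was picked for display after the matches had been seen. The sequences are the 250 bases before the start of each gene, 5′ to 3′ on the gene's strand, from RefSeq (GRCm38.p6), with CCAAT or its complement ATTGG in capitals. They belong to called members and were likewise picked after the matches had been seen. An entry was found for 3 of the 4 called members. Msmo1 lies at chr8:64733579-64733828 on the minus strand, Idi1 at chr13:8885356-8885605 on the plus strand and Nsdhl at chrX:72918271-72918520 on the plus strand.
Msmo1: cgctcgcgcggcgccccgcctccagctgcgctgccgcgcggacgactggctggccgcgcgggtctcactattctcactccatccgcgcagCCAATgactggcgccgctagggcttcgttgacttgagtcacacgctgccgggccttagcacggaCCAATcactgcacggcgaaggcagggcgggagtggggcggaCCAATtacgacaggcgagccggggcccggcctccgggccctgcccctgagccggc
Idi1: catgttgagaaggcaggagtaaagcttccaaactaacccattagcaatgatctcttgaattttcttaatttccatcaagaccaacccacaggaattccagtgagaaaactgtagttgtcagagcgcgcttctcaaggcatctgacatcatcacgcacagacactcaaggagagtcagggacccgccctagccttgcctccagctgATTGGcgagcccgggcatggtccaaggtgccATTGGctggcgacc
Nsdhl: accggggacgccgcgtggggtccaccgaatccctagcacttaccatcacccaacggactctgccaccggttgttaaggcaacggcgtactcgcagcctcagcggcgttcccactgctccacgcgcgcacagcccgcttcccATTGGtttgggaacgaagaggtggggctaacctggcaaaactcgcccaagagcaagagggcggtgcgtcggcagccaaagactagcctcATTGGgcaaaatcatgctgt

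Msmo1 holds 3 matches, whose first bases lie 160, 96 and 55 bases before the start; Idi1 holds 2, at 45 and 14, and Nsdhl 2, at 109 and 20. On either strand, CCAAT was found in 13 of 14 kept cholesterol genes with an entry, against 37.5% of all genes with a promoter of this length and 1 of 13 kept male-biased genes. The share of all genes includes genes that were not kept. Most of the 14 cholesterol genes were not called, so a match does not set the called members apart. TTCNNNGAA, the letters of the STAT5 site through which growth hormone acts, was found in 2 of 13 male-biased genes, against 8.13% of all genes. TCACNCCAC, a form of the sterol response element, was found in 0 of 14 cholesterol genes, against 1.22% of all genes. These are 3 of 7 patterns searched, and the patterns and the promoters shown were picked after the matches had been seen. The other patterns, TTCTNNGAA, a direct repeat of AGGTCA with any base between, ATCGAT and TATAAA, were found in 0, 0, 1 and 1 of the 14 cholesterol genes and in 2, 0, 1 and 2 of the 13 male-biased genes. A match describes these letters in this window and does not show a bound site.

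Of the enzymes that make polyunsaturated fatty acids 6 of 8 kept members lay below 0, with a median of -0.40, but in the NDGA pair 7 of 8 lay above 0, with a median of 0.34. Fads1, the delta-5 desaturase, was called: it read 4237 on WT chow, 7398 on WT HFD and 3400 on ob/ob chow, a difference of -1.11, but 0.32 in the NDGA pair. Fads2, the delta-6 desaturase, read 7245 and 5751 on its brighter probe, a difference of -0.33, and 3649 and 1569 on the other, a difference of -1.19. In the NDGA pair these probes were at -0.81 and 0.61, so they differed in size and then in direction.

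Fatty acid breakdown genes lay mostly below 0 in both compartments, with few past 2-fold, and mostly above 0 in the NDGA pair. In mitochondria 13 of 16 kept members lay below 0 and 1 was called, with a median of -0.37; in peroxisomes 23 of 27 lay below 0 and 4 were called, also with a median of -0.37. The medians in the NDGA pair were 0.53 and 0.27. Decr2, which clears double bonds from fatty acids in peroxisomes, read 887 on WT chow, 2234 on WT HFD and 892 on ob/ob chow, a difference of -1.28; with NDGA it read 1687 and 3243, a difference of 0.92. The lean and ob/ob arrays were nearly equal and WT HFD stood above them. Abcd3, a carrier of fatty acids into peroxisomes, differed by -1.07, with -0.49 on its other probe, but by 0.54 in the NDGA pair. Acaa1a, a peroxisomal thiolase, read 5964 and 2956, just past 2-fold, and was at 0.09 in the NDGA pair. Nudt7, named above, is the other called member. Hadh, the mitochondrial member called, differed by -1.04 on 1 probe and by 0.42 on the other; these were at 0.99 and -0.48 in the NDGA pair. Acsl1, which activates long-chain fatty acids, lay just inside 2-fold at -0.99, and at 0.23 in the NDGA pair. Ppara, the receptor that switches many of these genes on, read 854 and 578, a difference of -0.52, and -0.06 in the NDGA pair.

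**Figure D4:**
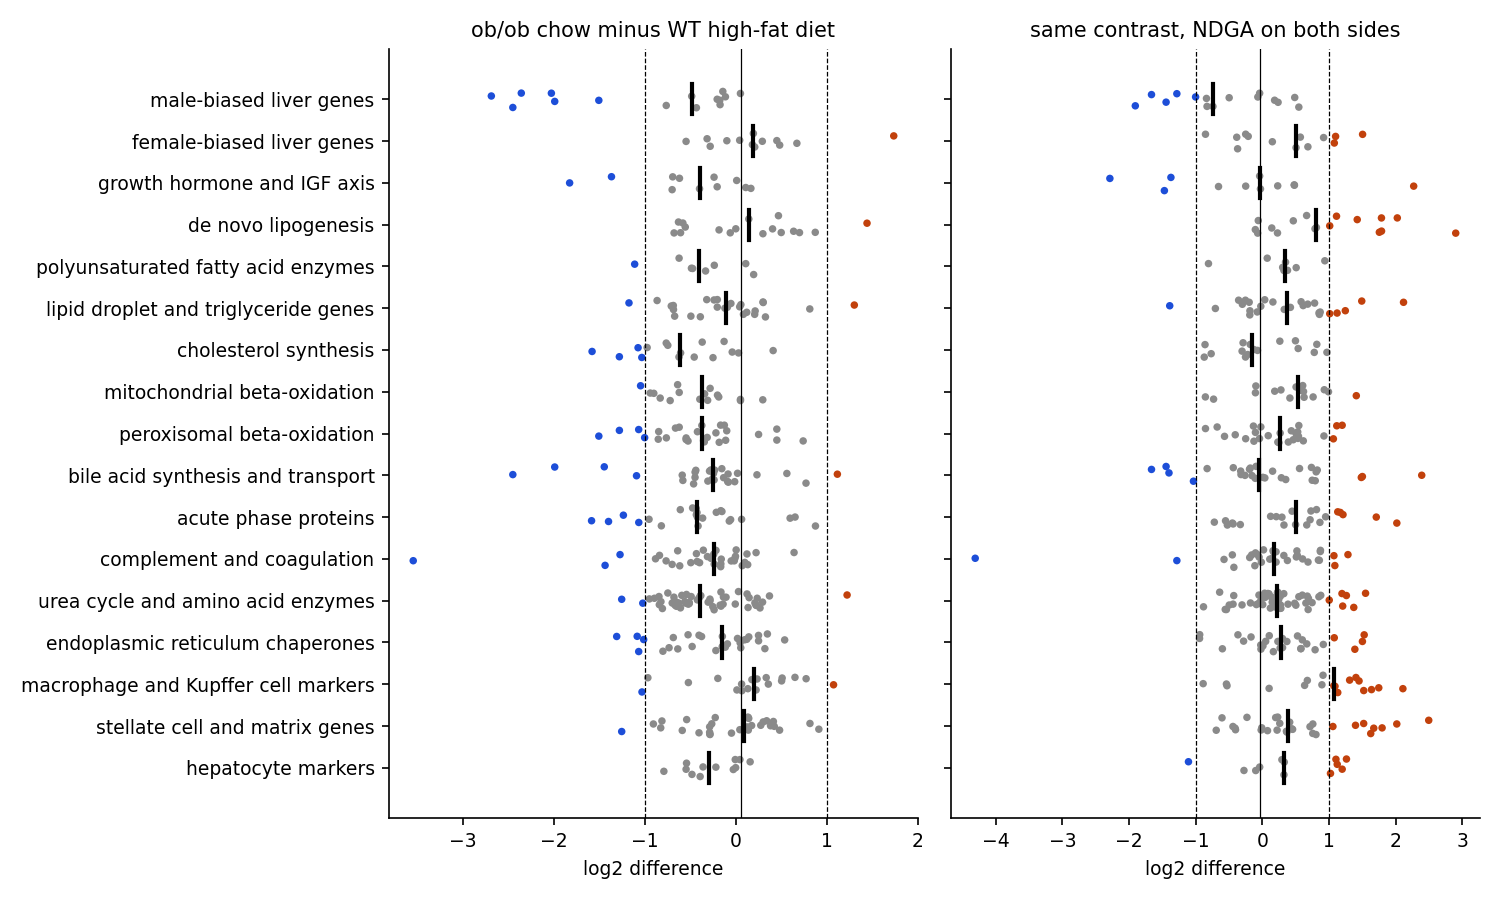
Log2 differences of the kept members of 17 gene lists, 1 point per gene, for ob/ob chow minus WT HFD (left) and the same contrast with NDGA on both sides (right; its horizontal axis is wider). Thick bars are list medians, the solid line is the median of all kept genes, dashed lines mark 2-fold and coloured points lie past it. Male-biased genes lie low in both panels, with medians of -0.48 and -0.74, while mitochondrial beta-oxidation has medians of -0.37 and 0.53.

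In bile acid synthesis, Cyp7a1 and Cyp7b1 read lower on the ob/ob array in both pairs. Of 28 kept members of the bile acid list 23 were below 0, 4 were called lower and 1 higher, and the median was -0.25; in the NDGA pair it was -0.04. Cyp7a1, the rate-limiting enzyme of the classic route, read 343 on WT chow, 554 on WT HFD and 172 on ob/ob chow; with NDGA it read 1698 on WT HFD and 612 on ob/ob. Each ob/ob array was below its WT HFD partner, by -1.44 and -1.40 in log2, although the NDGA arrays were both brighter than those without NDGA. Cyp7b1, which hydroxylates oxysterols in the alternative route and is also male-biased, read 1083 on WT chow, 804 on WT HFD, 509 on WT HFD with NDGA, 106 on ob/ob chow and 155 for ob/ob with NDGA. Both ob/ob arrays were below all WT arrays, with differences of -2.45 (5.46-fold) and -1.45. Cyp8b1, which sets the share of cholic acid, differed by -0.44 and the bile salt export pump Abcb11 by -0.13. Among transporters, Abcc4, an efflux pump of the basolateral membrane, read 52.9 on WT chow, 70.6 on WT HFD, 47.7 on WT HFD with NDGA, 212 on ob/ob chow and 462 for ob/ob with NDGA. It was the higher member, at 1.12 and 2.39; at 0.98 without normalization it was not called. Abcb4, the phospholipid flippase of the bile canaliculus, was lower at -1.09 but was at 1.50 in the NDGA pair.

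Glucose genes were mostly under 2-fold, with 1 of 15 kept members called and a median of -0.02, against 0.50 in the NDGA pair. G6pc, the glucose-6-phosphatase that releases glucose from liver, read 52637 on WT chow, 27296 on WT HFD and 52054 on ob/ob chow, a difference of 0.93 that did not reach 2-fold, and 0.68 in the NDGA pair. Pck1, of the same route, differed by 0.44, and its other probe by 1.03. Gys2, the liver glycogen synthase, read 1267 and 599, a difference of -1.02, but 0.79 in the NDGA pair. Enzymes of amino acid breakdown and the urea cycle had a median of -0.40, with 40 of 52 kept members below 0, 2 called lower and 1 higher. The called shares were 3.85% lower and 1.92% higher, against 1.96% and 0.337% of all kept genes. In the NDGA pair the median was 0.23, with 37 of 52 above 0, 6 at least 2-fold higher and 0 lower. Prodh, proline dehydrogenase, differed by -1.25, but by 0.27 in the NDGA pair. Csad, which makes the taurine precursor hypotaurine, read 12770 on WT HFD and 29908 on ob/ob chow, a difference of 1.22, but 0.12 in the NDGA pair; without normalization it was 0.85 and not called.

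Genes of the acute phase lay mostly below 0 without NDGA and not with it. Of 23 kept members 19 were below 0, 4 were called lower and 0 higher, and the median was -0.42; in the NDGA pair the median was 0.50 and 5 were at least 2-fold higher. Lcn2, an iron-scavenging protein of inflamed liver, read 60.6 on WT chow, 1221 on WT HFD and 374 on ob/ob chow, but 178 on WT HFD with NDGA and 873 on ob/ob chow with NDGA. The difference turned from -1.58 to 2.02. Mbl2, a mannose-binding lectin, read 8218 and 3089, a difference of -1.40, and Mt2, a metallothionein, read 5751 and 2416, a difference of -1.23. Both were above 0 in the NDGA pair, at 0.67 and 0.50.

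Complement and clotting genes had a median of -0.24, with 3 of 33 kept members called lower and 0 higher, and a median of 0.17 in the NDGA pair. The lowest was Cfd, complement factor D or adipsin, a protease made chiefly by fat cells, which read 274 on WT chow, 789 on WT HFD and 3181 on WT HFD with NDGA, against 21.9 on ob/ob chow and 113 for ob/ob with NDGA. Both ob/ob arrays were below all WT arrays, with differences of -3.54 and -4.31. Of 9 fat cell markers 5 were kept, Cfd among them, with a median of 0.12 and -0.71 in the NDGA pair. Adipoq, adiponectin, read 38.6 and 43.7, Plin1 read 16.6 and 13.2, and Lep read 10.1 and 5.91 on WT HFD and ob/ob chow, all near background. Kept markers read higher and went both ways: Car3, a carbonic anhydrase that liver also makes, read 6052 and 3550, a difference of -0.76, while the glycerol channel Aqp7 differed by 0.39 and the glucose carrier Slc2a4 by 0.60. In the NDGA pair these were at 1.01, -0.57 and -0.90. C9, the last component of the membrane attack complex, differed by -1.44 and, in the NDGA pair, by 1.09. The clotting factor F11 differed by -1.27, and by 0.38 in the NDGA pair.

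Folding factors of the endoplasmic reticulum had 4 of 28 kept members lower and a median of -0.15, against 0.28 in the NDGA pair. Pdia4, a disulfide isomerase, read 261 and 75.5, a difference of -1.31, but 85.3 and 340 in the NDGA pair, a difference of 1.53; its relative Pdia6 went from -1.01 to 1.08. Creld2 was at -1.07 and Derl3 at -1.08, and at 0.60 and 0.27 in the NDGA pair. Hspa5, the main chaperone of this compartment, differed by -0.09, so the called members were not joined by it. With an offset of 200 in place of 50 none of the 4 was called: Pdia4 was at -0.74, Pdia6 at -0.56 and Derl3 at -0.57, whose probes were dim, and Creld2, which read 1984 and 922, at -0.96.

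Drug and heme metabolism gave further calls. Sult1a1, a sulfotransferase for phenols, read 994 on WT chow, 1941 on WT HFD and 450 on ob/ob chow, a difference of -1.99, but 1041 and 2438 with NDGA, a difference of 1.19. Alas1, the rate-limiting enzyme of heme synthesis in liver, read 11046 on WT chow, 26654 on WT HFD and 12486 on ob/ob chow, a difference of -1.09, and -0.56 in the NDGA pair. Among 35 kept NRF2 and glutathione genes 1 was called higher, with a median of 0.16, and 0.45 in the NDGA pair. This was Cbr3, a carbonyl reductase, which read 31.6 on WT chow, 99.1 on WT HFD, 36.6 on WT HFD with NDGA, 601 on ob/ob chow and 361 for ob/ob with NDGA. Both ob/ob arrays stood above all WT arrays, with differences of 2.13 (4.37-fold) and 2.25. Nqo1, a classic NRF2 target, read 6.69 and 7.63, near background, and Hmox1 differed by 0.19.

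Markers of other liver cells were followed as well; in bulk tissue fewer cells of a type and less RNA per cell cannot be told apart. Among 18 kept macrophage and Kupffer cell markers 14 were above 0, with a median of 0.20 and 1 called each way. In the NDGA pair the median was 1.08, with 15 above 0, 10 at least 2-fold higher and 0 lower. Of all kept genes 6.67% were at least 2-fold higher in that pair. On 10 of the 18 both ob/ob arrays read above all WT arrays, against 7.49% of all kept genes. These arrays include the pair compared, and the list was written with earlier results of these data known, so the count describes the list. The summed normalized intensity of the whole list was 12457 on WT chow, 20061 on WT HFD and 27277 on ob/ob chow, and 10993 on WT HFD and 23385 on ob/ob chow with NDGA. Vsig4, the complement receptor of Kupffer cells, read 2279 on WT HFD and 4860 on ob/ob chow, a difference of 1.08, and 0.89 in the NDGA pair; without normalization it was 0.74 and not called. Marco, a scavenger receptor, read 400 and 170, differing by -1.03, and -0.89 with NDGA. Adgre1 and Cd68, general macrophage markers, differed by -0.52 and 0.18, and the Kupffer cell lectin Clec4f by 0.07; in the NDGA pair they were at 1.64, 1.45 and 0.63.

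The 30 kept stellate cell and matrix genes had a median of 0.09, with 1 called lower and 0 higher. In the NDGA pair the median was 0.39, with 8 at least 2-fold higher, against 6.67% of all kept genes. Col1a2, a chain of collagen I, read 86.2 on WT chow, 664 on WT HFD and 354 on ob/ob chow, a difference of -0.82 against 1.06 with NDGA. Col3a1 was called at -1.25 and was at 1.52 with NDGA; its other probe was near background. Acta2, a smooth muscle actin of stellate cells that have become active, differed by 0.91 on its brightest probe and by -0.20, 0.05 and 0.06 on the others, and the brightest was at -0.44 in the NDGA pair. The 15 kept endothelial markers had a median of 0.10 and the 7 kept lymphocyte and neutrophil markers 0.41, with 0 called in either list; their medians in the NDGA pair were 0.41 and -0.56. Interferon-induced genes had 2 of 24 called lower, Igtp at -1.04 and Ifi27 at -1.03, which were at 0.82 and 0.05 in the NDGA pair. The other probe of Ifi27 was at -1.04, and at 0.99 in the NDGA pair.

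Of 16 kept skeletal muscle markers 14 were above 0, with a median of 0.21, and 1 was called higher. In the NDGA pair 14 were below 0, with a median of -0.94, 7 at least 2-fold lower and 1 at least 2-fold higher. The called one, Tnnt3, fast troponin T, stood apart from Ckm, Acta1 and Mylpf, which were all near background on both arrays compared. It read 73.4 on WT chow, 409 on WT HFD, 220 on WT HFD with NDGA, 1023 on ob/ob chow and 1242 for ob/ob with NDGA, a difference of 1.23, and 2.26 in the NDGA pair. It was lowest on the lean array and highest on the ob/ob arrays, while Ckm was bright only on the NDGA arrays. Hepatocyte markers were bright on both arrays: Alb, albumin, read 65078 and 64868, at or near the scanner's limit, Ttr read 7620 and 6547, and Hnf4a 4081 and 3171.

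Some of the largest differences came from probes bright on 1 array. Probes were set apart when the deposited value plus 50 was at least 4-fold higher on 1 array than on any other, a rule chosen after the data were seen that 0.252% of kept genes met. Of the higher genes 3 were bright on the ob/ob chow array alone: Krtap7-1, a hair keratin-associated protein, read 5702 there and 14.7 to 40.8 elsewhere, Entpd6 read 4653 against 92.6 to 161, and Slc39a2 read 892 against 43.3 to 53.1. Their differences of 6.21, 4.94 and 3.23 were -0.32, -0.41 and -0.14 in the NDGA pair. Of the lower genes 6 were bright on the WT HFD array alone; Bcl3 read 12392 there and 553 to 790 elsewhere, and Plau read 1797 against 84.7 to 130. Their differences of -3.89 and -3.49 were 0.13 and -0.42 in the NDGA pair. The rule also set apart 2 higher genes that were brightest on ob/ob chow with NDGA, Scd2 and Cidea. Without all these probes 23 genes were higher and 157 lower.

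Other probes read higher or lower on both ob/ob arrays than on every WT array; both ob/ob arrays are from mice on chow, so food varied among the WT arrays alone. Of the kept genes 7.49% read higher and 5.71% lower on both ob/ob arrays than on all 3 WT arrays, and the gap was at least 2-fold for 8 and 27 genes. These genes were all called, which the rule of the gap fixes. Apart from genes named above, the 8 higher ones include Cd9, a tetraspanin, which read 560 on WT HFD and 1318 on ob/ob chow, and Ly6d, a surface protein of the Ly6 family, which read 52.5 on WT chow, 937 on WT HFD and 2430 on ob/ob chow. Differences were 1.17 for Cd9 and 1.33 for Ly6d, and 1.47 and 3.05 in the NDGA pair. Among the 27 lower ones, Polr2e, an RNA polymerase subunit, read 470 to 622 on the WT arrays and -9.80 and -3.80, that is no signal over background, on the ob/ob arrays, with differences of -3.69 and -3.70. Mfge8, a secreted protein that marks dying cells for uptake, read 2741 to 5308 on the WT arrays against 729 and 751. Sult2a8, a liver sulfotransferase, read 263 to 338 against 44.7 and 60.9. Their differences were -1.84 and -1.93, and -2.39 and -1.50 in the NDGA pair. Several others are receptors or channels not known in liver. Trpm5, the taste channel, read 17582 on WT chow, 4307 on WT HFD and 1020 on ob/ob chow. On the same arrays Mc1r, the melanocortin receptor of pigment cells, read 39520, 7783 and 2750, and Olfr24 read 3960, 1438 and 426. These were at -2.03, -1.48 and -1.64, and at -4.11, -3.47 and -2.31 in the NDGA pair; the other probe of Trpm5 was near background, at -0.12. Cd9, Mfge8, Sult2a8, Trpm5, Mc1r and Olfr24 were chosen after their values were seen.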

How the data were processed

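Liver RNA was measured on Phalanx Mouse OneArray V1 slides in 1 colour, with 1 array for each of 5 groups. The deposited values are linear intensity values per probe, as judged from the values: some lie below 0 and others reach the scanner's limit. Which scanner, background correction and scaling the authors used is not stated. The platform annotation gave 1 gene symbol for 21020 of 29922 probes, several for 0 and no name here for 8902; through RefSeq (GRCm38.p6), 17558 symbols were current, 3410 were replaced by a synonym and 52 stayed as they were. The 16637 genes each took their brightest probe by the mean of all arrays, including 3566 genes with several probes. Intensities were quantile normalized, 50 was added and log2 taken (Python 3.11.15, numpy 2.4.6, pandas 2.3.3; loess with statsmodels 0.14.6). No test was made, because each group has 1 array. The number of arrays limits the precision. Steps were run on simulated data with differences larger than the 2-fold threshold and noise below the probe SD, so that run does not test calls near 2-fold.

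The comparison, the 41 gene lists (1243 entries, 1078 named on the array), the named genes and the measures were chosen with earlier results of these data known. Genes named are the 15 highest and 15 lowest, and in each list the first 3 members, all called members and up to 4 with the largest difference, plus Lep, Lepr and Ppara; any other gene is named as picked with its values known. Other settings tried were 11 listed with the design and 2 chosen after seeing the data.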

Additional observations from a re-analysis of the deposited data

Results flagged for a closer look

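Among the genes the naming rule allows, 10 were called in opposite directions without and with NDGA, each on 1 array a side. The difference between the pairs was not tested, and across all kept genes both pairs ran opposite ways at r = -0.40.

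The values in the NDGA pair, against those without NDGA, were 2.02 against -1.58 for Lcn2, 1.19 against -1.99 for Sult1a1 and 1.50 against -1.09 for Abcb4. For secreted proteins they were 1.21 against -1.06 for Itih3 and 1.09 against -1.44 for C9. For the folding factors they were 1.53 against -1.31 for Pdia4 and 1.08 against -1.01 for Pdia6. The remaining genes were Col3a1 at 1.52 against -1.25, Ces1f at 1.01 against -1.17 and Vps35, a sorting protein of endosomes, at 1.15 against -2.58. Vps35 read 1654 on WT HFD and 202 to 587 on the other 4 arrays.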

How the results depend on the processing

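No paired analysis was possible because each group has 1 array. The spread between mice is unknown, so a change with the processing was judged against the probe SD of 0.33. Counts of higher and lower genes were 15 and 336 without normalization, 16 and 309 with median centring, and 43 and 282 with a floor at the 25th percentile in place of an offset. Lower genes numbered 72 with an offset of 200 and 98 when genes had to pass the 75th percentile of brightness. Of the higher genes, 12 (80%) had the same direction in the NDGA pair without normalization and 12 (75%) with median centring. Of the lower genes, 32 (44.4%) had it with an offset of 200 and 32 (32.7%) with that stricter filter. With the main processing the shares were 71.4% of higher and 33.1% of lower genes. For lower genes the share was 15.2% without normalization and 21.4% with median centring. The cause was not tested, except that the stricter filter leaves fewer genes. Of 72 called genes named, 45 were called under every alternative run on them and 0 changed direction. The other 27 lost the call, 18 of them with an offset of 200 and 10 with the mean of probes. Among all called genes with several probes, the mean of probes, dim ones included, stayed past 2-fold for 11 of 49 lower and 2 of 4 higher genes. All 42 list medians, the added list included, moved by less than the probe SD, and 34 kept their sign relative to all genes. The probe SD is that of 1 probe's difference, so it is a loose bar for a median of several genes. Relative to all genes, the male-biased median ranged from -0.82 to -0.25 and the growth hormone one from -0.68 to -0.26. The cholesterol synthesis median ranged from -0.78 to -0.55. Of 84 counts of list members past 2-fold, 37 moved by over 1.5 times under some alternative. Lower members ranged from 3 to 6 among male-biased genes, 2 to 5 in cholesterol synthesis, 3 to 7 among acute phase proteins, 1 to 4 in the bile acid and growth hormone lists, 0 to 5 among chaperones, 0 to 3 in mitochondrial beta-oxidation, 2 to 7 among xenobiotic genes and 1 to 9 among urea cycle and amino acid enzymes. Higher members ranged from 0 to 2 in fatty acid synthesis. Signals near background limit the dim genes, and the scanner's limit the brightest.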
